A study of Mus musculus with 45 samples.

Results

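The 28 genes described here make cholesterol and fatty acids or control that synthesis, and they were taken as a named list from the 54838 mouse genes of a count table. They comprise 18 enzymes of the sterol branch, 6 enzymes of the fatty acid branch and 4 regulators, and all 28 were found in the table by their Ensembl identifiers. RNA was sequenced from 15 *PyMT*+ mouse mammary tumour cell lines, each with 3 technical repeats, giving 45 libraries. All of these lines carry polyomavirus middle T antigen, an oncogene that is expressed under the MMTV promoter in the mammary epithelium of the mice from which the cells came. The parental lines were YEJG and YEJH, with 1 line each. From tumours that grew after transplantation into the mammary fat pad came the line YEJG-FP and the 5 lines YEJH-FP1 to YEJH-FP5. From the lungs came YEJG-M1 and YEJG-M2, and the 5 lines YEJH-M1 to YEJH-M5. The label of YEJH-M3 speaks of lung metastases where those of the other lung lines speak of whole lung. All lines were grown in culture before RNA was taken, so site refers to where a line was isolated and not to where its RNA was made. Technical repeats were not treated as independent samples, and the line was the unit of every comparison.

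Cholesterol is built from acetyl-CoA through mevalonate, isoprenoids, squalene and lanosterol. Saturated fatty acids are built from the same precursor, which ATP citrate lyase supplies, and are then lengthened and desaturated. The transcription factors SREBP2, encoded by *Srebf2*, and SREBP1, encoded by *Srebf1*, activate the genes of these pathways. Their precursors are held in the endoplasmic reticulum with SCAP, and INSIG1 retains that complex when sterols are plentiful. When sterols are scarce, SCAP escorts the precursors to the Golgi, where they are cleaved. *Insig1* is itself an SREBP target, as are most sterol enzymes.

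Promoter windows from RefSeq on GRCm38.p6, from 250 bases before to 50 bases after a transcription start, were found for 23 of the 28 genes. *Fdps*, *Fdft1*, *Sqle*, *Scd1* and *Scd2* had none. The NF-Y box CCAAT, searched on both strands, was present in 19 of the 23 genes (82.6%), compared with 41.1% of the 27025 genes that have windows. The Sp1 box GGGCGG was present in 19 of the 23, compared with 38.2% of all genes. A strict form of the sterol regulatory element, TCACNCCAC, was present in 1 of the 23, *Hmgcs1*, compared with 1.44% of all genes, and it began at position -137 from the start. These letter matches are descriptions, and binding was not measured. The windows of *Hmgcs1*, *Insig1*, *Cyp51* and *Fasn* are shown because these genes carried some of the largest differences between lines, and that of *Scap* because its level hardly varied and its window holds no CCAAT. Each is written 5′ to 3′ on the strand of its gene, and capitals mark CCAAT or its complement and, in *Hmgcs1*, the sterol element as well. In *Fasn* a pair of opposed CCAAT boxes share letters.
Hmgcs1, HMG-CoA synthase, chr13:119690101-119690400, forward strand: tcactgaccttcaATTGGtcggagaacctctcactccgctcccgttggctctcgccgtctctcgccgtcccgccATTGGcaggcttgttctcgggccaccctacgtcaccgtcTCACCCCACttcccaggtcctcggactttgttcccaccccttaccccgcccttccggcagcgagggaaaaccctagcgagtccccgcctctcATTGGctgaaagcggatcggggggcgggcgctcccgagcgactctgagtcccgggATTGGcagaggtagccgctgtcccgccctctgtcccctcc
Insig1, chr5:28071162-28071461, forward strand: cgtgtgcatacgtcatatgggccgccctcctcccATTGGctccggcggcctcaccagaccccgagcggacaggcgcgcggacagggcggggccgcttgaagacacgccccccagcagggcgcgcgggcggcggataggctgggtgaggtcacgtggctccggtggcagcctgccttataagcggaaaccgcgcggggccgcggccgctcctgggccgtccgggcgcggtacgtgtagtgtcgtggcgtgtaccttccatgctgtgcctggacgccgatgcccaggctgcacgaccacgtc
Cyp51, lanosterol demethylase, chr5:4104648-4104947, reverse strand: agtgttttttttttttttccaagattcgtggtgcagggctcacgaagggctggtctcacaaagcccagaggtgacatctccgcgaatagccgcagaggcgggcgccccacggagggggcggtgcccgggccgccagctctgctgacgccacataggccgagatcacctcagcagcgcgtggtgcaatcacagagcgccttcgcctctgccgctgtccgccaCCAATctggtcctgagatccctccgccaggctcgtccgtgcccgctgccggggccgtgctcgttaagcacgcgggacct
Fasn, fatty acid synthase, chr11:120824498-120824797, reverse strand: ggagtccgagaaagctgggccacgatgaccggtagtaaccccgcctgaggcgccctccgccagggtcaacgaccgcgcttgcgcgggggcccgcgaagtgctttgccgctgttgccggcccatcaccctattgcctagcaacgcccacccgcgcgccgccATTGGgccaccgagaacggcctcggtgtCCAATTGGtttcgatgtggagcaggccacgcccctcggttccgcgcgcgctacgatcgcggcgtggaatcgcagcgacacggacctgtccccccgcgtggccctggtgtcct
Scap, chr9:110333038-110333337, forward strand: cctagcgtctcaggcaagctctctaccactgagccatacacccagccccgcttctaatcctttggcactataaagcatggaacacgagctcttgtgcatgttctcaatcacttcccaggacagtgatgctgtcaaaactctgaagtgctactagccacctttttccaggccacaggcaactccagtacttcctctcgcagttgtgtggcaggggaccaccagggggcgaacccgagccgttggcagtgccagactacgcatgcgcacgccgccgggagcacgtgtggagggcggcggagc

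Between 9723860 and 16943900 reads fell on genes in each library, and a library held between 32 and 49062 reads of a member. Library names differ in their prefix, here called run A (22 libraries) and run B (23 libraries), and every line has libraries of both. What the prefix stands for is not stated. Reads set aside for low alignment quality numbered at least 822828 in each run A library and 0 in each run B library. Between the runs 16.2% of 13824 genes differed with line as covariate. Of the 28 members 5 were among them, a share near that of all genes. These were *Fdps*, at -0.77 on the log2 scale in run B against run A, *Idi1* at -0.74, *Acaca* at -0.28, *Insig1* at -0.22 and *Fdft1* at -0.20. Levels are given as CPM, read counts scaled by library size and TMM factors, averaged over the 3 technical repeats of a line. Fibroblast markers summed to 51.0 CPM in YEJG-M1, 13.3 in YEJG-M2 and between 1.9 and 6.0 in the other lines. *Pdgfra* alone was at 42.0 CPM in YEJG-M1 and 9.0 in YEJG-M2, while *Lum* was at 0 in both. The 5 epithelial markers were detected in every line, and all adipocyte markers together stayed at or below 0.11 CPM. The lung marker *Foxj1* was present in every line, while 2 or 3 of the 5 lung epithelial markers were at 0 in each. For YEJG-M1, the library of repeat 1 carries a name that points to a different line. Its title decided its place here.

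Genes were compared with each other per kilobase of exon. *Fasn*, which makes palmitate, had the highest level of the 28, at 208 ± 52.5 CPM per kilobase (SD, n = 15 lines). It was followed by *Scd2*, a desaturase, at 86.8 ± 21.5 and by *Acly*, ATP citrate lyase, at 28.1 ± 3.88. The highest sterol enzyme was *Hmgcs1*, which makes HMG-CoA, at 27.4 ± 9.33 CPM per kilobase. The lowest member was *Tm7sf2*, a sterol reductase, at 1.02 ± 0.28 CPM per kilobase. These first 3 places and the last remained with the length of the canonical transcript, while *Hmgcs1* moved from the fourth to the eighth place. In every line *Fasn* stood above 83 CPM per kilobase and *Tm7sf2* below 1.6.

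Most members differed between derived lines of different parental origin. Of the 28 members, 25 were lower in the 3 lines derived from YEJG than in the 10 derived from YEJH and 0 were higher, compared with 21.4% of 15056 tested genes called lower and 42.3% called in either direction. The test was edgeR's quasi-likelihood test on counts summed per line with site as covariate, with an adjusted p under 0.05 after Benjamini-Hochberg adjustment over all tested genes. The median log2 difference of the 28 members was -0.73, and that of all tested genes was 0.013. Without any overlap of line values, 21 members lay lower in all YEJG-derived lines, compared with 13.3% of tested genes. In bulk RNA, fewer cells with a transcript and less of it per cell cannot be told apart.

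**Figure D1:**
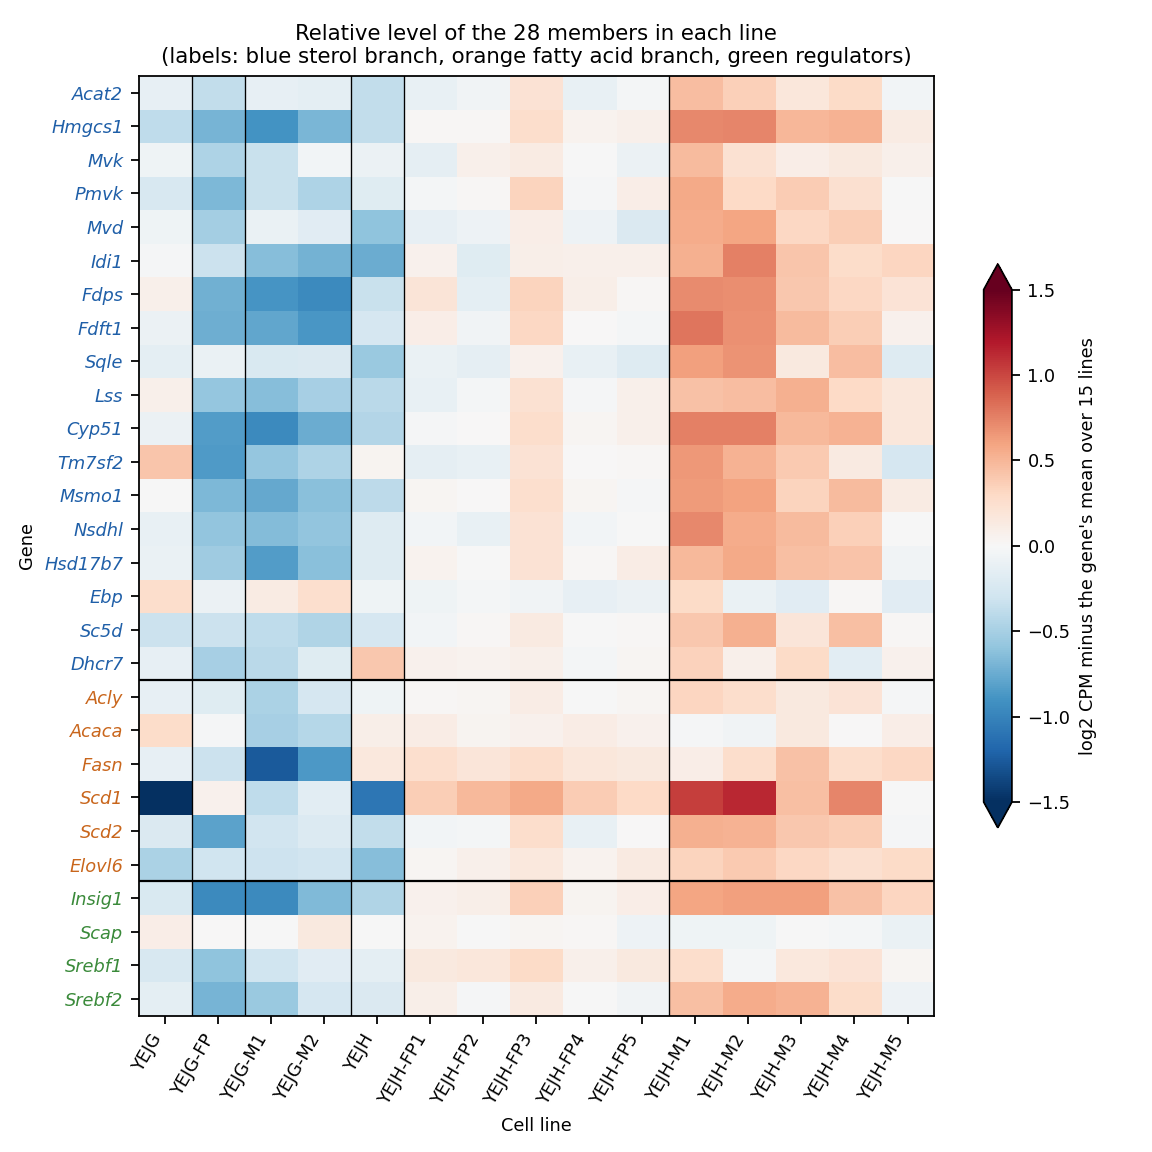
Relative level of the 28 members (rows) in the 15 lines (columns), as log2 CPM minus the mean of the gene over all lines, with blue for lower and red for higher. Vertical lines separate parental, fat-pad and lung lines of each origin. The YEJG-derived lines are blue in most rows and YEJH-M1 to YEJH-M4 are red, while *Scap* stays near 0 throughout and *Scd1* reaches beyond the scale in the parental line YEJG.

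In the sterol branch 16 of 18 members were lower in YEJG-derived lines, with a median log2 difference of -0.83. *Hmgcs1* was at 84.0 CPM in YEJG-FP, 72.9 in YEJG-M1 and 84.6 in YEJG-M2, while the YEJH-derived lines ran from 138 through a median of 156 to 226. No YEJG-derived line reached the lowest YEJH-derived line, and the log2 difference was -1.11 (SE 0.14, adjusted p = 6.37e-05). *Fdps*, which makes farnesyl diphosphate, was at 22.4, 19.9 and 19.02 CPM in the same 3 lines and ran from 33.3 through 44.1 to 60.3 in YEJH-derived lines. Its log2 difference was -1.19 (SE 0.15, adjusted p = 8.26e-05), and it is one of the members that moved with the run. *Fdft1*, squalene synthase, was at 34.2, 33.2 and 31.1 CPM against 55.2 to 99.7, a log2 difference of -1.13 (SE 0.15, adjusted p = 0.000116).

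Of the sterol members after squalene, *Sqle* and *Ebp* did not pass and the others were lower. *Lss*, which closes the sterol rings, was at 28.4 CPM in YEJG-FP, 27.4 in YEJG-M1 and 30.1 in YEJG-M2 and ran from 39.5 through 48.8 to 61.6 in YEJH-derived lines (log2 difference -0.82, SE 0.09, adjusted p = 4.44e-05). *Cyp51* was at 65.6, 60.5 and 69.9 CPM against 116 to 198 with a median of 136. Its log2 difference of -1.20 (SE 0.13, adjusted p = 3.55e-05) was the most negative of the sterol branch. *Msmo1*, the sterol methyl oxidase, was at 65.5, 61.7 and 67.6 CPM against 103 to 163 with a median of 119 (log2 difference -0.98, SE 0.12, adjusted p = 4.94e-05). In each of these 3 genes the groups did not overlap. The other sterol members that were lower were *Acat2*, *Mvk*, *Pmvk*, *Mvd*, *Idi1*, *Tm7sf2*, *Nsdhl*, *Hsd17b7*, *Sc5d* and *Dhcr7*, with log2 differences between -0.92 and -0.37. *Mvk* and *Mvd*, both mevalonate pathway enzymes, overlapped between the origins.

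The 2 sterol members that did not pass were *Sqle* and *Ebp*. *Sqle*, squalene epoxidase, was at 132 CPM in YEJG-FP, 119.8 in YEJG-M1 and 122 in YEJG-M2. The YEJH-derived lines ran from 123 through a median of 139 to 224, so that the groups overlapped (log2 difference -0.36, SE 0.16, adjusted p = 0.0934). *Ebp*, a sterol isomerase, was at 67.6, 78.3 and 85.7 CPM against 63.7 to 87.4 and had a log2 difference of 0.13 (SE 0.09, adjusted p = 0.231). *Sqle* passed when YEJG-FP or YEJH-M5 was left out, and *Ebp* passed when YEJH-M1 was left out.

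**Figure D2:**
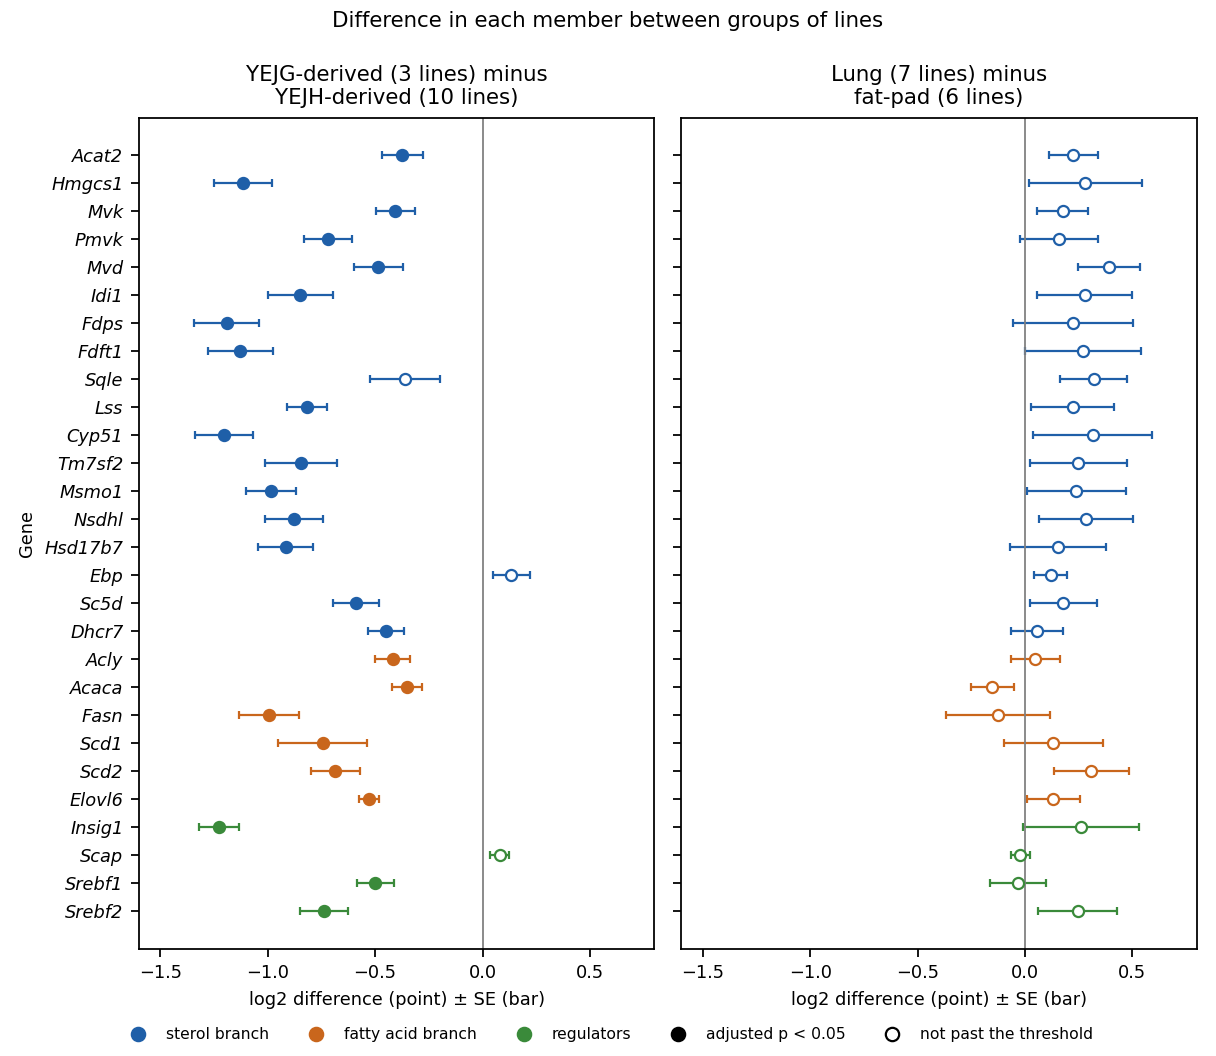
Log2 difference of each member (points, with bars of 1 SE) between YEJG-derived and YEJH-derived lines on the left and between lung and fat-pad lines on the right. Filled points passed an adjusted p of 0.05 in edgeR. On the left 25 of 28 points are filled and negative, and on the right none is filled although all 18 sterol points lie above 0.

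All 6 fatty acid members were lower in YEJG-derived lines, with a median log2 difference of -0.61. *Fasn* was at 1871 CPM in YEJG-FP, 974 in YEJG-M1 and 1290.5 in YEJG-M2, and the YEJH-derived lines ran from 2499 through a median of 2801 to 3164. Its log2 difference was -0.99 (SE 0.14, adjusted p = 0.000153), and the fat-pad line lay closer to the YEJH-derived lines than either lung line did. *Elovl6*, which lengthens palmitate to stearate, was at 80.7, 80.3 and 81.5 CPM in the YEJG-derived lines and ran from 102 through 114 to 131 in the others. Its values hardly varied among the YEJG-derived lines, and the log2 difference was -0.53 (SE 0.05, adjusted p = 1.01e-05).

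*Scd2* was at 364 CPM in YEJG-FP, 519 in YEJG-M1 and 550.2 in YEJG-M2 against 585 to 915 with a median of 697 (log2 difference -0.68, SE 0.11, adjusted p = 0.000456). *Scd1*, the related desaturase, was at 53.5, 39.4 and 45.7 CPM against 51.0 to 112, so that the groups overlapped (log2 difference -0.74, SE 0.21, adjusted p = 0.0118). *Scd1* no longer passed without YEJG-M1 (adjusted p = 0.072) or without YEJG-M2 (adjusted p = 0.053). *Acaca*, acetyl-CoA carboxylase, was at 204, 146 and 153 CPM against 199.7 to 228, with the fat-pad line inside the range of the YEJH-derived lines (log2 difference -0.35, SE 0.07, adjusted p = 0.0016). *Acly* was lower by a log2 difference of -0.42 (SE 0.08, adjusted p = 0.00128).

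Of the 4 regulators 3 were lower in YEJG-derived lines. *Insig1* was at 21.1 CPM in YEJG-FP, 21.1 in YEJG-M1 and 25.9 in YEJG-M2, while YEJH-derived lines ran from 42.0 through a median of 51.5 to 62.6. Its log2 difference of -1.23 (SE 0.10, adjusted p = 3.33e-06) was the most negative of the 28. *Srebf2* was at 67.3, 74.7 and 91.9 CPM against 104 to 161 with a median of 118 (log2 difference -0.74, SE 0.11, adjusted p = 0.000254). *Srebf1* was at 82.2, 102 and 111 CPM against 122 to 153 with a median of 139 (log2 difference -0.50, SE 0.09, adjusted p = 0.000629). *Scap* was at 107, 106 and 118 CPM against 99.7 to 111, and the groups overlapped (log2 difference 0.08, SE 0.04, adjusted p = 0.174).

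Other genes around the pathway moved in both directions between the origins. Of 10 tested fatty acid genes 5 were lower and 1 higher, with *Acsl3*, an acyl-CoA synthetase, at a log2 difference of -0.51. Of 10 genes for sterol efflux, storage and the LXR axis 3 were higher and 0 lower. Of 5 genes for SREBP processing 2 were lower and 2 higher. Beside the 42.3% of all tested genes that were called, these small counts say little about either group. With both YEJG lung lines left out, a setting chosen after seeing the data, 16 of 28 members were lower, compared with 9.84% of tested genes. YEJG-FP is then the only YEJG-derived line, and it is assumed to vary as the YEJH-derived lines do. All YEJG-derived lines were also low in epithelial genes. *Epcam* was at 344 CPM in YEJG-FP, 127 in YEJG-M1 and 198 in YEJG-M2 against 577 to 678 in YEJH-derived lines. *Cdh1* was at 257, 60.9 and 104 CPM against 343 to 463, and *Krt19* at 78.4, 14.1 and 14.9 against 147 to 204. *Pdgfra*, a fibroblast marker, stood at 42.0 CPM in YEJG-M1 and 9.0 in YEJG-M2 against 2.1 to 4.3 in YEJH-derived lines. Of the other fibroblast markers in YEJG-M1, *Col1a1* was at 4.0 CPM, *Col1a2* at 4.9, *Dcn* at 0.10 and *Lum* at 0. The part of these differences in the pathway result was not tested.

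**Figure D3:**
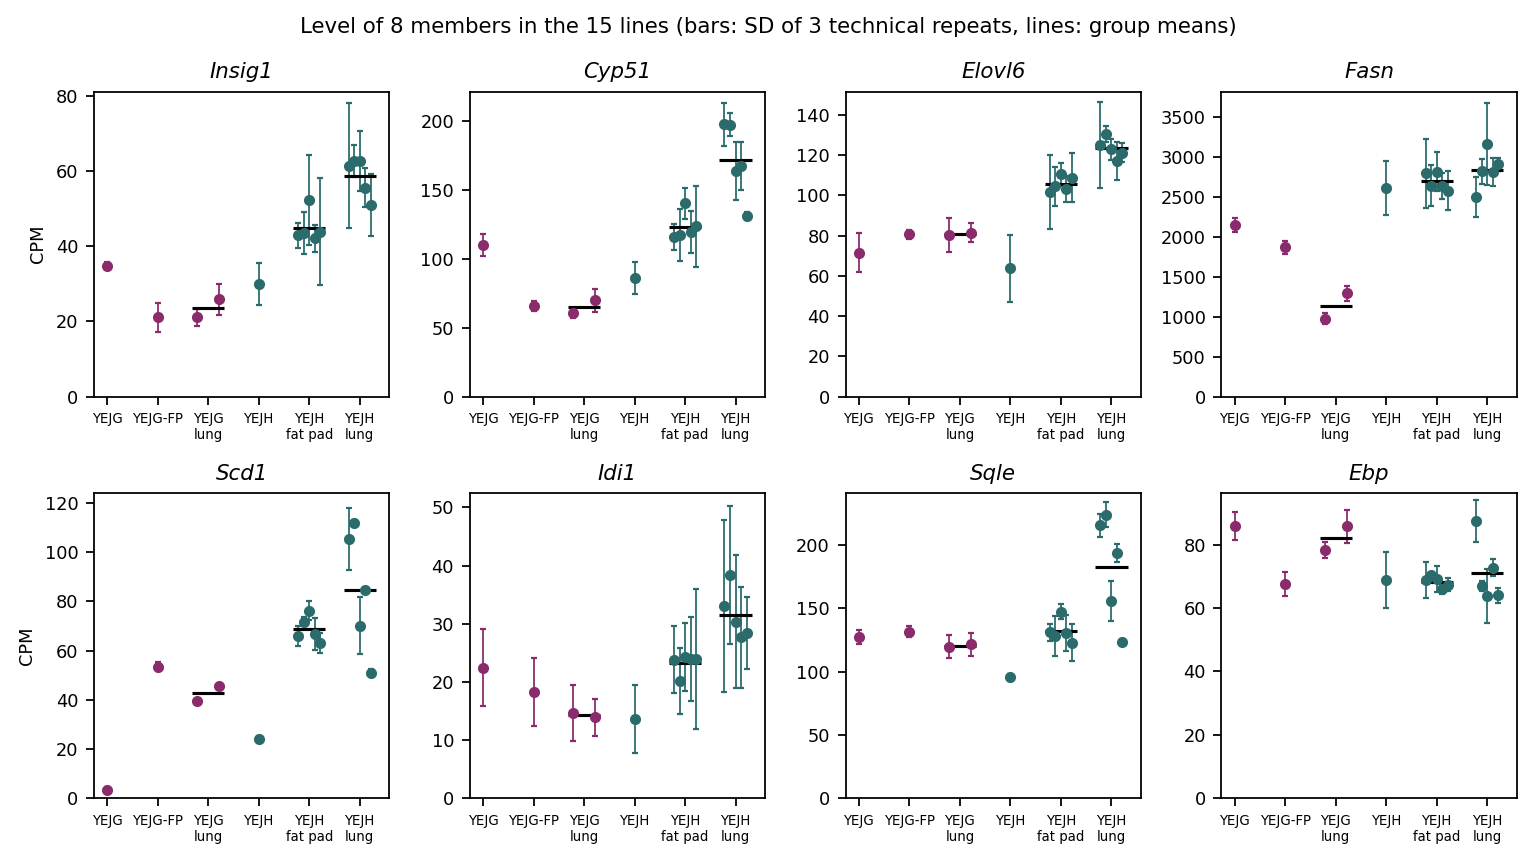
CPM of 8 members in the 15 lines, with YEJG and its derived lines in purple and YEJH and its derived lines in green. Points are means of 3 technical repeats with bars of 1 SD, horizontal lines are means of groups with more than 1 line, and each axis starts at 0. *Insig1*, *Cyp51* and *Elovl6* separate the derived lines by origin, *Scd1* is lowest in both parental lines, and *Ebp* overlaps between the YEJG-derived and YEJH-derived lines.

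The parental lines did not show this order. Parental YEJG was above YEJH in 14 of 18 sterol members and in 47.7% of tested genes, with a median log2 ratio of 0.28 over the sterol members, a value from 1 line on either side that allows no test. Against their own parental line, the YEJG-derived lines were lower on average in 18 of 18 sterol members, with a median log2 difference of -0.44, and 48.2% of tested genes were lower in this contrast. The YEJH-derived lines were higher than theirs in 17 of 18, with a median of 0.51, and 51.3% of tested genes were higher. *Insig1*, for example, was at 34.8 CPM in YEJG and at 21.1 to 25.9 in its derived lines, but at 29.9 in YEJH and at 42.0 to 62.6 in its derived lines. The only sterol member below its parental level in both was *Dhcr7*, the final reductase of the branch, at 145 CPM in YEJG and 208 in YEJH.

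The difference between these contrasts was tested with an interaction term, which was chosen after seeing the data. It was negative for 26 of 28 members with a median of -0.80, and 7 members passed, all lower, compared with 1.08% of 16361 tested genes called lower and 2.19% called in either direction. These were *Insig1* (-1.43, SE 0.21, adjusted p = 0.00542), *Lss* (-1.29, SE 0.21, adjusted p = 0.00999), *Elovl6* (-0.66, SE 0.11, adjusted p = 0.0106), *Cyp51* (-1.54, SE 0.30, adjusted p = 0.0217), *Msmo1* (-1.34, SE 0.26, adjusted p = 0.022), *Fdps* (-1.61, SE 0.34, adjusted p = 0.0295) and *Idi1*, isopentenyl diphosphate isomerase (-1.55, SE 0.34, adjusted p = 0.0349). *Elovl6* differed in size only, since it was above the parental level by 0.18 in YEJG-derived and by 0.84 in YEJH-derived lines. Each origin rests on 1 parental line, and the count followed the libraries used. It was 15 without YEJG-FP and 14 without YEJH-M5, each including *Scd1* as the 1 member that was higher, and 1 without the first technical repeats. In these settings 2309 of 16295, 390 of 16274 and 183 of 15487 tested genes were called, against 359 of 16361 with all lines. In run A alone 0 members and 200 of 13890 tested genes passed, with a median of -0.88 over the members. In run B alone 8 members and 288 of 15008 tested genes passed, with a median of -0.69.

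**Figure D4:**
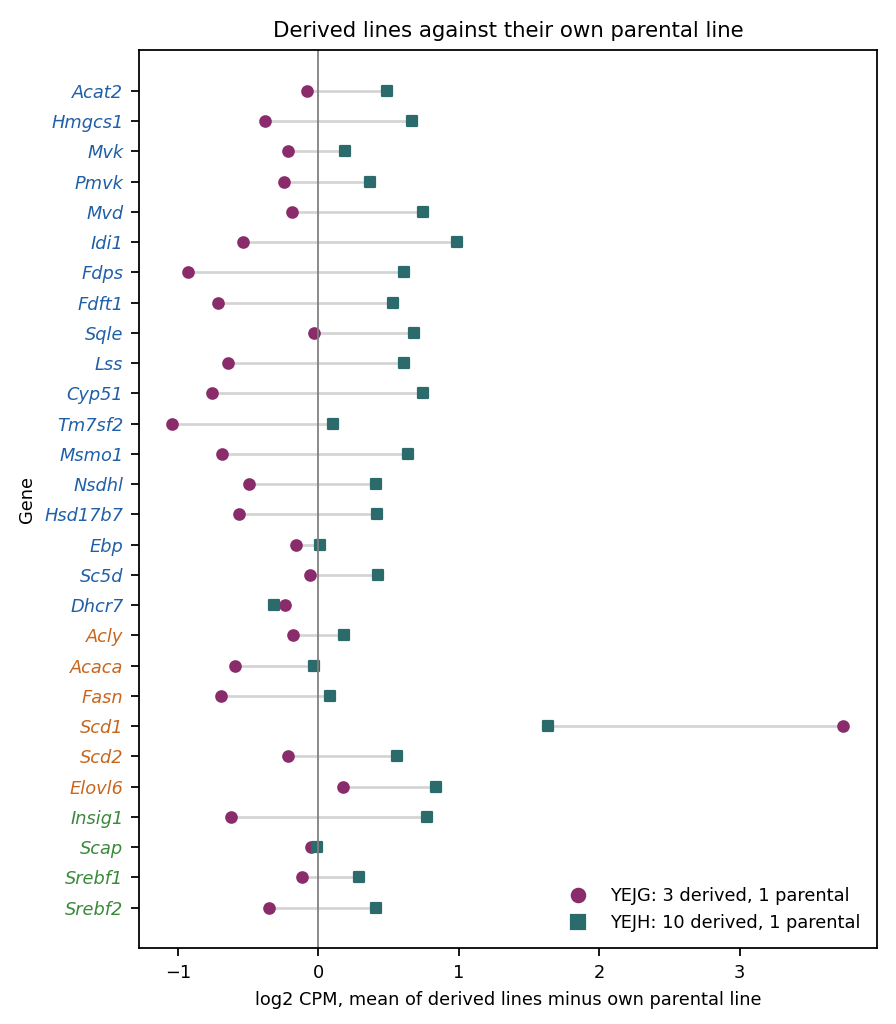
Log2 CPM of derived lines minus that of their own parental line for each member, with circles for YEJG (mean of 3 derived lines) and squares for YEJH (mean of 10 derived lines). Most circles lie left of 0 and most squares right of it, while *Scd1* lies far to the right for both, at 3.74 and 1.63.

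With origin as a covariate, 2 of 28 members differed between the 13 derived and the 2 parental lines, compared with 7.74% of 16361 tested genes. The share of members was thus near that of all genes. Both members were higher in derived lines, where 3.51% of tested genes were, and both were fatty acid enzymes. *Scd1*, which introduces the double bond of oleate, was at 3.43 CPM in YEJG and 24.1 in YEJH, and its derived lines ran from 39.4 through 66.8 to 112. Every derived line was above both parental lines, and the log2 difference was 2.32 (SE 0.40, adjusted p = 0.00592). *Elovl6* was at 71.4 CPM in YEJG and 63.8 in YEJH and ran from 80.3 through 109 to 131 in derived lines (log2 difference 0.47, SE 0.11, adjusted p = 0.0205). These 2 were also the only members with both parental lines below all derived lines, compared with 4.68% of tested genes.

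Leaving out a parental line leaves 1 line in that group, so only effect sizes are given for it. Without YEJG 26 members were higher in derived lines, with *Scd1* at a log2 difference of 1.66. Without YEJH 26 members were lower, while *Scd1* was at 3.73 and *Elovl6* at 0.13. Without the first technical repeats *Elovl6* was at 0.39 (adjusted p = 0.051). With all lines in the fit, none of the 18 sterol members passed, with *Dhcr7* nearest at -0.28 (adjusted p = 0.0745), and their median was -0.066. Without YEJH, *Tm7sf2* was at -1.10 in derived against parental lines and *Lss* at -0.69. *Insig1* was higher in derived lines without YEJG (0.75) and lower without YEJH (-0.68). *Dhcr7* passed in DESeq2, in limma, in run A and without YEJG-M2, YEJH-M1 or YEJH-M4. Of the 32 tested further pathway genes 3 were higher and 0 lower. *Nr1h3*, which encodes the sterol receptor LXR alpha, was at 0 CPM in YEJG and 0.05 in YEJH and between 0.34 and 2.75 in derived lines (adjusted p = 0.00725), levels too low for a fold. *Fads1*, a fatty acid desaturase, rose by 1.43 on the log2 scale and *Lpin1*, a phosphatidate phosphatase, by 0.82.

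Between the 7 lung and the 6 fat-pad lines the sterol enzymes leaned to the lung side without passing the test. All 18 had a positive log2 difference, from 0.055 for *Dhcr7* to 0.39 for *Mvd*, mevalonate diphosphate decarboxylase, with a median of 0.23. Of all tested genes 53.2% were positive. By edgeR 0 of 28 members passed, compared with 0% of 15056 tested genes, of which 784 had an unadjusted p under 0.05. *Mvd* was the only member with an unadjusted p under 0.05 in this fit (SE 0.14, adjusted p = 0.909). With parental origin as covariate on the same line sums, 25 members were positive and 20 had an unadjusted p under 0.05, compared with 8.43% of tested genes. Again 0 of 28 passed, compared with 0.0199% of tested genes, with a lowest adjusted p of 0.27. With DESeq2 21 genes passed, of which 0 were members. *Mvd* ran from 9.12 through 12.1 to 13.98 CPM in fat-pad lines and from 11.6 through 16.1 to 19.7 in lung lines. *Sqle* ran from 123 through 131 to 147 CPM in fat-pad lines and from 119.8 through 156 to 224 in lung lines (log2 difference 0.32, SE 0.16). *Fasn*, *Acaca*, *Srebf1* and *Scap* were the 4 members with negative values, between -0.15 and -0.022. In all 28 members the lung and fat-pad lines overlapped. The lean of the sterol enzymes was not seen throughout the YEJG lines. In YEJH lines the lung mean was above the fat-pad mean for every sterol member. Against YEJG-FP, YEJG-M1 and YEJG-M2 were lower in some and higher in others. On the log2 scale *Idi1* was at -0.32 and -0.39 and *Mvd* at 0.41 and 0.34. The site difference was lower in YEJG than in YEJH lines for 13 of the 18 and higher for 5. The median of this gap was -0.37.

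Within YEJH-derived lines, 5 against 5, the same contrast had a median of 0.31 over the 28 members, and 19 members had an unadjusted p under 0.05, compared with 7.55% of tested genes. Still 0 of 28 passed, compared with 0.0467% of 14990 tested genes, and the lowest adjusted p of a member was 0.0931 for *Elovl6*. *Elovl6* was at 102, 104, 111, 103 and 109 CPM in YEJH-FP1 to YEJH-FP5 and at 125, 131, 123, 117 and 121 in YEJH-M1 to YEJH-M5. *Idi1* was at 23.8, 20.1, 24.3, 24.0 and 23.9 CPM in the fat-pad lines and at 33.1, 38.4, 30.4, 27.6 and 28.4 in the lung lines. These were the 2 members in which all YEJH fat-pad lines lay below all YEJH lung lines, compared with 0.717% of tested genes.

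The 5 YEJH lung lines were not alike. YEJH-M1 exceeded every YEJH fat-pad line in 18 of 18 sterol members, YEJH-M2 and YEJH-M3 in 15, YEJH-M4 in 14 and YEJH-M5 in 1. The shares of all tested genes above every YEJH fat-pad line were 29.2%, 26.1%, 30.2%, 20.3% and 24.9% in these lung lines in the same order. *Sqle* was at 216, 224, 156, 194 and 124 CPM in YEJH-M1 to YEJH-M5 and at 131, 128, 147, 130.4 and 123 in the fat-pad lines. *Hmgcs1* was at 224, 226, 193, 196 and 148 CPM in the lung lines and at 138, 138, 164, 142 and 144 in the fat-pad lines. *Srebf2* was at 150.0, 161, 157, 132 and 104 CPM in the lung lines against 117, 108, 120.0, 109 and 106. In these 3 genes YEJH-M5 was the lowest lung line, as it was for 15 of the 18 sterol members, compared with 21.7% of tested genes. The SD between lung lines exceeded that between fat-pad lines in 27 of 28 members, with medians of 0.21 and 0.11 on the log2 scale. The same held for 78.9% of tested genes, so a wider spread between lung lines was general to these lines. Single technical repeats had a median SD of 0.16, which is not directly comparable, since line values are means of 3 repeats. The order of the lung lines was seen after the values were known and carries no test.

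**Figure D5:**
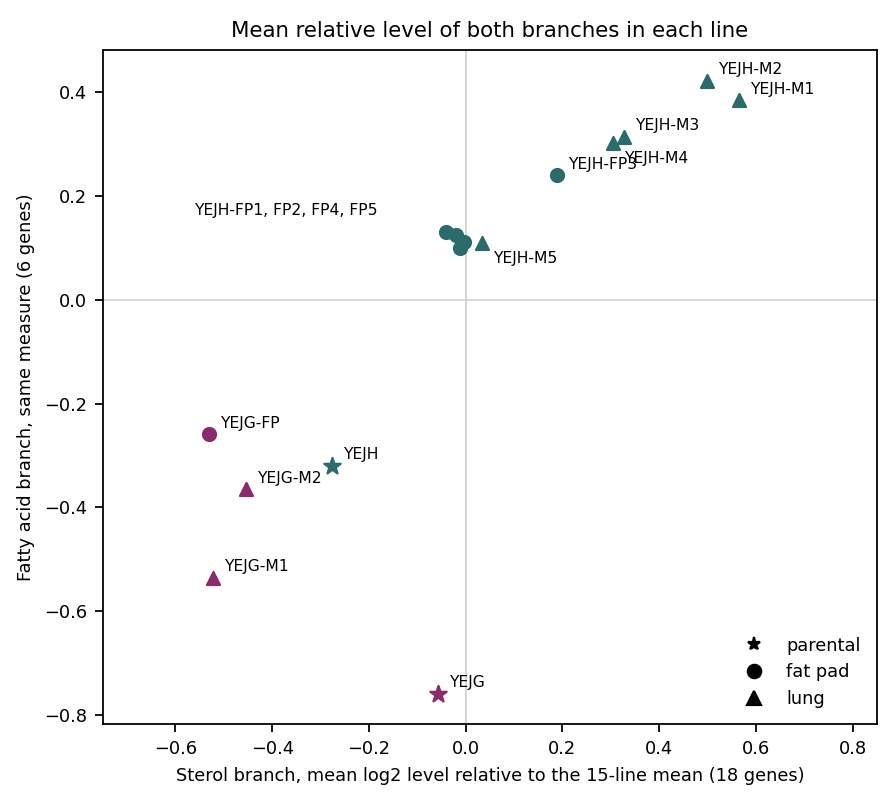
Mean relative level of the 18 sterol members (x axis) and of the 6 fatty acid members (y axis) in each line, as log2 CPM minus the mean of each gene over 15 lines. Stars are parental, circles fat-pad and triangles lung lines, with YEJG and its lines in purple and YEJH and its lines in green. YEJH-M1 to YEJH-M4 lie at the upper right and the YEJG-derived lines at the lower left, while YEJG itself is near 0 on the sterol axis and lowest on the fatty acid axis, at -0.76. That place rests on *Scd1*, since without it YEJG is at -0.13 and YEJG-M1 lowest at -0.57.

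A setting chosen after seeing the data, in which libraries were kept apart in limma with library run and parental origin as covariates, called 11 of 28 members higher in lung lines, compared with 3.77% of 12950 tested genes in either direction. They were *Hmgcs1*, *Mvd*, *Idi1*, *Sqle*, *Lss*, *Cyp51*, *Msmo1*, *Nsdhl*, *Sc5d*, *Scd2* and *Insig1*, with log2 differences from 0.22 for *Sc5d* to 0.44 for *Mvd*. The same fit without origin called 0 of 28, and so did edgeR on line sums with origin as covariate. In this setting the libraries of a line entered as correlated samples and not as 1 sum.

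Whether the contrast of lung with fat-pad lines depended on origin was tested with an interaction term, although YEJG has only 1 fat-pad line. It passed for 4 of 28 members, compared with 15.5% of 15056 tested genes, so that the share of members was near that of all genes. *Fasn* was at 1871 CPM in YEJG-FP, 974 in YEJG-M1 and 1290.5 in YEJG-M2, while the YEJH fat-pad lines were at 2793, 2641, 2816, 2635 and 2577 and the YEJH lung lines at 2499, 2817, 3164, 2808 and 2908. The interaction was -0.78 (SE 0.16, adjusted p = 0.00747). *Acaca* had an interaction of -0.42 (SE 0.08, adjusted p = 0.00595), with lung values of 146 and 153 CPM below the 204 of YEJG-FP. *Idi1* had -0.82 (SE 0.20, adjusted p = 0.0156), at 18.3 CPM in YEJG-FP, 14.6 in YEJG-M1 and 13.9 in YEJG-M2. *Srebf1* had 0.43 (SE 0.13, adjusted p = 0.0417), at 82.2 CPM in YEJG-FP and 102 and 111 in the lung lines.

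Of these 4, *Fasn* passed in run A alone (-0.69, adjusted p = 0.025) and in run B alone (-0.82, adjusted p = 0.010). *Acaca* and *Idi1* passed in neither run, and *Srebf1* passed in run B only. The number of members was 1 without the second technical repeats, 2 without the third and 7 without YEJH-M5. In these settings 14.2%, 13.8% and 16.4% of tested genes passed, in the same order. *Epcam*, *Cdh1* and *Pdgfra* differ between YEJG-FP and the YEJG lung lines as well, with *Epcam* at 344 CPM in YEJG-FP, and their part in these results was not tested.

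Across the 15 lines most sterol members followed each other. Pearson's r of log2 CPM with the mean of the other sterol members was 0.99 for *Cyp51*, *Nsdhl* and *Msmo1*, 0.98 for *Fdft1* and 0.97 for *Hmgcs1* (n = 15 lines, given as a description since lines share an origin). *Insig1* had 0.96, *Srebf2* 0.95, *Acly* 0.94 and *Scd2* 0.93, although they belong to other groups. The lowest values in the sterol branch were 0.79 for *Sqle*, 0.60 for *Dhcr7* and -0.14 for *Ebp*. Within the 10 YEJH-derived lines, *Sqle* reached 0.94, while *Fasn* was at 0.085, *Srebf1* at 0.13, *Scap* at -0.29 and *Acaca* at -0.65. *Scd1* was at 0.41 over all lines and at 0.84 among these 10. *Fdft1* and *Cyp51* share 24.8% and 28.3% of their exon bases with other annotated genes on GRCm39, namely *Ctsb* for *Fdft1* and *Akap9* among others for *Cyp51*, and reads there could not be told apart by strand.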

How the data were processed

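RNA of 15 cultured lines was sequenced as 45 polyA libraries on a NextSeq500 with an unstranded kit. The authors deposited raw read counts per gene, made with FastQC, HISAT2, SAMtools 1.2 and HTSeq per the submitters' processing notes. Those name the human build GRCh38 although the identifiers are mouse Ensembl genes, and the annotation release is not given in the sources used here. Of 54838 genes, 50764 (92.6%) were named through GENCODE on GRCm39. Counts of the 3 technical repeats were summed per line and tested with edgeR 4.0.16 in R 4.3.3 (filterByExpr, TMM, quasi-likelihood test, Benjamini-Hochberg adjustment over all tested genes). DESeq2 1.42.0, limma 3.58.1, other scalings, no filter, single runs and left-out lines or repeats were alternatives. Values per line rest on technical repeats, and p-values measure the spread between lines. Reads outside genes (31.6% to 43.3% per library) were left out. The scripts were tested on simulated data.

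Per-line values were given for the members with the smallest p in a comparison and for regulators and key enzymes in any case. The members, gene lists and tests were chosen with earlier results of these data known. Runs A and B are names given here to the prefixes of the library names. Same-numbered fat-pad and lung lines of YEJH did not deviate together (correlations from -0.18 to 0.032), so line numbers were not taken as pairs. The labels do not give the mouse of a line. The authors describe the lung lines as isogenic to the tumour lines, from micrometastases found after the tumour was removed. Fat-pad and lung lines may therefore share a mouse. Which lines do is not stated, so pairing by mouse could not be fitted and lines were treated as independent. Some further pathway genes are not reported here.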

Additional observations from a re-analysis of the deposited data

Results flagged for a closer look

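Among the 5 YEJH fat-pad lines, YEJH-FP3 stood apart at the high end in 4 members by Dixon's test. It was at 44.0 CPM for *Acat2*, a thiolase, with the next line at 37.1, at 164 CPM for *Hmgcs1* (next 144), at 124 CPM for *Msmo1* (next 107) and at 52.1 CPM for *Insig1* (next 43.8). YEJH-FP2 was lowest for *Idi1*, at 20.1 CPM with the next line at 23.8. Among the 5 YEJH lung lines, YEJH-M5 was lowest for *Hsd17b7*, a sterol ketoreductase, at 39.6 CPM with the next line at 55.0. These are 6 of 56 groups checked, and chance marks about 1 in 20.

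The contrast of lung with fat-pad lines differed between the origins, by the interaction term in edgeR, for *Fasn* (-0.78, adjusted p = 0.00747), *Acaca* (-0.42, adjusted p = 0.00595), *Idi1* (-0.82, adjusted p = 0.0156) and *Srebf1* (0.43, adjusted p = 0.0417). YEJG contributes 1 fat-pad line to this term.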

How the results depend on the processing

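The count of 25 members lower in YEJG-derived lines stayed between 24 and 26 when 1 line or repeat was left out, and was 16 without both YEJG lung lines. For lung against fat-pad lines 0 members passed in every setting run except limma with run and origin as covariates (11). Over all genes that contrast called 0, against 21 in DESeq2, 77 with libraries apart in limma, 74 with run as covariate and 488 with run and origin. With the line number as a replicate block 0 members and 0 genes passed, with a median of 0.26 over the members (0.22 without it). With the technical repeat number as a replicate block 0 members and 68 genes passed. The replicate block on repeat number left 26 members for origin and 3 for derived against parental lines. It left 4 for the origin difference by site, where *Acaca* and *Idi1* gave way to *Acly* and *Sqle*. Of all tested genes 6299 of 12950, 2630 of 13824 and 3299 of 12950 passed in these fits, in the same order. For derived against parental lines the 2 members became 1 with fat-pad lines only, 5 with YEJH lines only and 4 with limma and run, and ran from 1 to 8 with 1 line or repeat left out. The genes called for derived against parental lines numbered 1267, against 2070 in DESeq2, 2573 in limma and 631 without the first repeats. With library totals in place of TMM 726 of 1241 were higher, against 575 of 1267. The 4 members whose site contrast differed by origin became 1 in run A, 2 in run B, 7 in limma and 9 in limma with run. In these settings 13.1%, 11.9%, 25.6% and 25.9% of tested genes passed. With 1 line or repeat left out the members ran from 1 to 7. That term could not be fitted without YEJG-FP. The 7 members of the parental interaction became 0 in run A and ran from 1 to 15 with 1 line or repeat left out. The cause of these changes was not tested. No member called with all lines in the fit changed sign while called in another setting. *Insig1*, not called for derived against parental lines with all lines in the fit, was at 0.75 on the log2 scale without YEJG and at -0.68 without YEJH.

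Each origin had 1 parental line, YEJG had 1 fat-pad line, and technical repeats add no lines. Every library held at least 32 reads of each member, and *Tm7sf2* was the least covered per kilobase. Run moved *Fdps* and *Idi1* most among the members.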

Other observations

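Genes around the pathway that handle sterol outside its synthesis also differed between the origins in the contrast of lung with fat-pad lines. Of 10 tested genes for sterol efflux, storage and the LXR axis, 6 had a positive interaction that passed in edgeR and 0 a negative one. Among them were *Npc1*, which exports cholesterol from lysosomes (0.76, adjusted p = 0.0041), *Lipa*, the lysosomal acid lipase (1.21, adjusted p = 0.0112), and *Soat1*, which esterifies cholesterol for storage (0.57, adjusted p = 0.0129). *Fads1* was at 15.5 CPM in YEJG-FP, 65.5 in YEJG-M1 and 60.1 in YEJG-M2, while YEJH-derived lines stood between 30.2 and 50.2 (interaction 1.85, adjusted p = 0.00128). Across all genes 15.5% passed, and YEJG has 1 fat-pad line. These genes were named after their values were seen.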
